A study of Mus musculus with 6 samples.

Results

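The 10 hepatocyte genes followed here serve ammonia disposal or mark the periportal zone, and their RNA was measured in livers of mice that had or had not lost intestinal Mttp and that had eaten a methionine/choline-deficient (MCD) diet. The genes were taken by symbol from the deposited table of read counts by their known roles and not by a threshold on their values. Earlier results of these data were known when they were chosen. They were Nags, Cps1, Otc, Ass1, Asl and Arg1 of the urea cycle, Gls2, Hal and Sds, whose enzymes release ammonia from amino acids, and Cyp2f2, a cytochrome P450 gene of periportal hepatocytes. All 10 were found among the 41388 genes counted, and all 10 were read deeply enough to be tested among the 17287 genes that passed the filter on low counts.

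The animals were male C57BL/6 mice that carried a floxed Mttp gene (Mttp f/f) together with Villin Cre ER T2, a Cre that the Villin promoter drives and tamoxifen switches on, aged 12 to 16 weeks. The Mttp-IKO group received tamoxifen at 50 μg/g body weight a day on 5 days, which lets Cre delete the floxed Mttp gene, and the control group, littermates that the labels call wild type, received vehicle. Both groups ate the MCD diet for 3 weeks, starting 3 weeks after the injections, and livers were taken after a 4 h fast. Each genotype was sequenced as 3 pools of liver RNA from 3 to 4 mice, and pooling averages over animals, which makes pools more alike than single mice are. The Villin promoter drives Cre mainly in the epithelium of the gut and not in hepatocytes, so liver Mttp, at 150.2 ± 52.1 CPM in control and 144 ± 15.9 CPM in Mttp-IKO pools (SD, n = 3), does not check the labels. Tamoxifen was given to one group alone, so its own effect on the liver and that of the deletion cannot be told apart.

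The urea cycle is the route by which the liver turns toxic ammonia into urea. Carbamoyl phosphate is made from ammonia and joined to ornithine in mitochondria, and the citrulline formed leaves for the cytosol, where it takes up aspartate, is cleaved to arginine and yields urea and ornithine again. Hepatocytes around the portal vein, which receive blood from the gut first, carry most of this route together with glutaminase and the enzymes that break down histidine and serine. Hepatocytes next to the central vein instead capture the ammonia that is left as glutamine. Transcription of the cycle genes is known to respond to protein intake, glucagon and glucocorticoids, so a diet that lacks an essential amino acid is a setting in which their levels are of interest.

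The pools held 25271585 to 36238734 reads on genes. Before scaling, 3 reads, the limit that a count of 0 allows, equal 0.0828 to 0.119 CPM (reads relative to library size), which covers counting error only. All other CPM values are scaled by edgeR's TMM factors of 0.899 to 1.11, unless another scaling is named. The Mttp-IKO pool 3 stood apart by its small non-coding RNAs, which took 0.634% of its reads against 3.60 to 5.27% in the other pools, and control pool 2 held 566 CPM of 6 striated muscle genes, control pool 1 67.8 CPM and every other pool at most 1.16 CPM. Of 13 cell type lists, the hepatocyte markers had the highest summed level in every pool. The kidney genes Umod and Kap had 0 reads in all 6 pools, and the enterocyte genes Lct, Sis and Alpi had at most 19 reads in any pool. Of the 6 enterocyte genes 3 passed the filter on low counts, and of the 5 kidney genes 2, so neither list was at 0 as a whole. The 5 kidney genes summed to 1.11 to 2.96 CPM in control and 0.545 to 2.25 CPM in Mttp-IKO pools. The 6 enterocyte genes summed to 1267 to 2431 CPM in control and 802 to 2908 CPM in Mttp-IKO pools, with Apoa4, which the liver also makes, among them.

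The sequence before the first base is shown for Otc, whose reads relative to other members differed between genotypes in the results, and for Nags, Ass1 and Hal, 3 of the members it was set against. The sequences are RefSeq promoter windows of build GRCm38.p6, which held 5 of the 10 members (the other one found was Cyp2f2), each ending at the base before the gene's first base and written 5′ to 3′ on the plus strand, the strand of all 4 genes. Capitals mark every match of 8 searched motifs, on either strand.
Otc, chrX:10252055-10252304: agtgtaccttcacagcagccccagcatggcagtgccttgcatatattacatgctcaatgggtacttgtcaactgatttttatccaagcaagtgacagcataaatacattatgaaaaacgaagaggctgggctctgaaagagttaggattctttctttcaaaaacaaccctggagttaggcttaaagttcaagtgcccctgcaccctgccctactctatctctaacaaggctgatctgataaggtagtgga
Nags, chr11:102145263-102145512: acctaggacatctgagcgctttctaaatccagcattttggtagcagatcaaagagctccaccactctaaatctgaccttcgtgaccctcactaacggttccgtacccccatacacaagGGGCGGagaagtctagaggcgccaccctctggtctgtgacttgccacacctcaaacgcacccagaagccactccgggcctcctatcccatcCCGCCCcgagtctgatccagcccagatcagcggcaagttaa
Ass1, chr2:31470020-31470206: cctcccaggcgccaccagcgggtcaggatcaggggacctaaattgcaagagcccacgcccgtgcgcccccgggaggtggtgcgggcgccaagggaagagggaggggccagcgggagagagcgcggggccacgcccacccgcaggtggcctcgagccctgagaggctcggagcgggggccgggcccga
Hal, chr10:93488518-93488767: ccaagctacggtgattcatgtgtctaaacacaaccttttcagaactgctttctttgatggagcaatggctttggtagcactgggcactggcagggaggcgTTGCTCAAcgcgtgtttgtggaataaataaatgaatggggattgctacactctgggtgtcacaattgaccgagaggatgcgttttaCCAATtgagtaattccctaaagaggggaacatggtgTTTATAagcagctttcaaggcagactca

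The 4 windows differed most in base composition. Ass1 had 75.4% G and C with 18 CpG in 187 bases, Nags 55.6% with 11 CpG, Hal 45.6% with 6 CpG and Otc 43.6% with 1 CpG in 250 bases each, beside a median of 52.4% G and C over 32851 windows. The motifs were the GC box GGGCGG, the cAMP response element TGACGTCA and its half-site TGACG, which overlaps it, CCAAT, the TATA box TATAAA, the HNF4 site CAAAGTCCA, the C/EBP site TTGCNNAA and the glucocorticoid half-site TGTTCT. Nags held the GC box at -132 and -41, counted from the gene's first base, and Hal held TTGCNNAA at -150, CCAAT at -64 and the TATA box, on the other strand, at -28. Otc and Ass1 held none of the 8 in these letters. Of all windows of 250 bases, 32.7% held the GC box, 33.8% CCAAT, 12.4% the TATA box, 9.56% the C/EBP site, 17.8% the cAMP half-site, 1.55% the whole element, 16.1% the glucocorticoid half-site and 0.384% the HNF4 site, so these matches are descriptions of the letters.

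The levels of the 10 genes spanned a wide range within the same livers. Per length (RPKM, scaled by TMM; mean ± SD, n = 3 pools), control pools held 813 ± 97.03 RPKM of Ass1, 596 ± 88.7 of Cps1 and 434 ± 35.4 of Arg1, followed by Cyp2f2 at 199.7 ± 83.7 RPKM. Sds at 87.9 ± 9.58, Gls2 at 76.8 ± 4.41 and Asl at 71.2 ± 16.2 RPKM formed a middle group, in which the pools of Sds and Gls2, and those of Gls2 and Asl, overlapped. Hal at 37.0 ± 8.09, Otc at 23.2 ± 4.48 and Nags at 13.3 ± 1.501 RPKM were the lowest, and every neighbouring pair other than the 2 named had pools that did not overlap. RNA of Ass1 and Arg1, whose enzymes open and close the cytosolic arm, thus stood well above that of Otc, whose enzyme is mitochondrial. It also stood above that of Asl, whose step lies between theirs in the cycle.

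In Mttp-IKO pools the same 4 genes led, with Ass1 at 1254 ± 375, Cps1 at 970.5 ± 279, Arg1 at 658 ± 166 and Cyp2f2 at 248 ± 96.2 RPKM, and the places below them were different. Asl took the fifth place at 135 ± 32.01 RPKM, ahead of Gls2 at 84.7 ± 21.3 and Sds at 76.6 ± 39.0 RPKM, and its pools no longer overlapped those of Gls2. Hal was at 53.5 ± 20.1 RPKM. Nags at 18.5 ± 1.38 and Otc at 17.7 ± 5.01 RPKM had changed places at the bottom, with overlapping pools. Neighbours also overlapped for Ass1 and Cps1, Cps1 and Arg1, Cyp2f2 and Asl, Gls2 and Sds, and Sds and Hal, so the order of those pairs is not set by these pools.

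**Figure D1:**
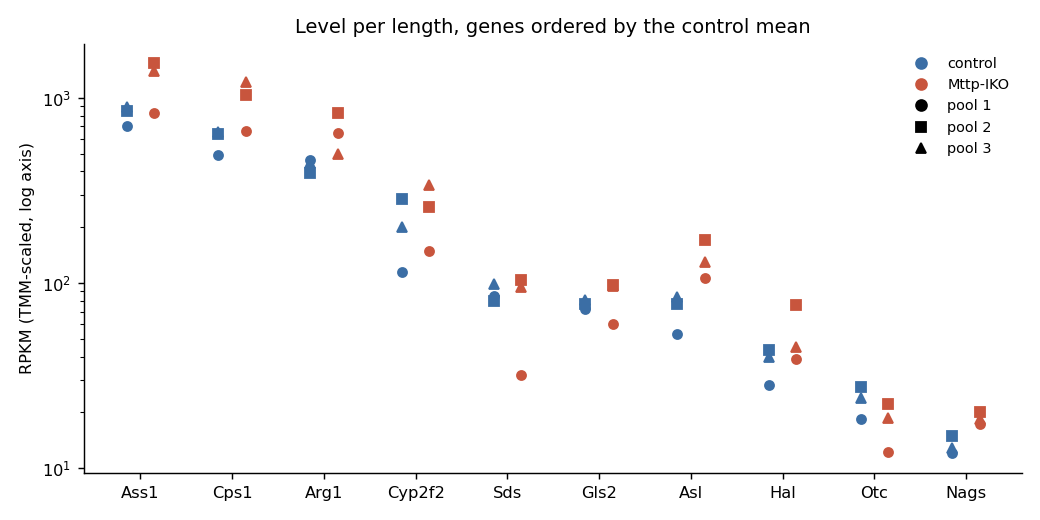
Level per gene length (RPKM scaled by TMM, log axis) of the 10 genes in each pool, with genes ordered from left to right by their control mean; blue marks control and orange Mttp-IKO pools, and the marker shape gives the pool number. Ass1 leads in both genotypes at a mean of 813 and 1254 RPKM, and the Mttp-IKO marks lie below the control marks on average for Sds and Otc alone.

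Between genotypes, 8 of the 10 genes had a higher mean in Mttp-IKO pools and 2, Otc and Sds, a lower one, and none passed the test across all genes. The edgeR quasi-likelihood test with Benjamini-Hochberg adjustment over 17287 genes gave 0 of 10 members an adjusted p under 0.05, where 4.01% of all genes tested passed (159 higher, 0.920%, and 535 lower, 3.09%). At an unadjusted p under 0.05 edgeR had 4 of 10, beside 23.0% of all genes. DESeq2 called 1 member, Asl, with an adjusted p of 0.00704, where it called 11.5% of all genes, and limma-voom called 0 where it called 2.48%. In 4 members (Nags, Cps1, Asl and Arg1) the Mttp-IKO pools all lay above the control pools, beside 14.6% of all genes tested in that direction and 31.0% in either, and in none did they all lie below (16.5% of all genes). This count rests on the scaling. Scaled to total counts, Nags and Asl lay apart above the controls and Otc below, 3 of 10 beside 31.0% of all genes (6.54% above, 24.4% below). Scaled so that the hepatocyte markers were equal, Nags lay above and Otc below, 2 of 10 beside 34.7% of all genes (2.99% above, 31.7% below). Nags was thus the only member apart from the controls on the same side under all 5 scalings tried, and Cps1 and Arg1 overlapped under both of these. The median log2 fold change was 0.51 over the members and 0.0059 over all genes tested. Without Mttp-IKO pool 3 edgeR called 1 member, Arg1 (log2 fold change 0.77, adjusted p = 0.0473), where it called 864 of all genes. Without any other single pool it called 0 members. Of all genes it called 24, 892 and 21 without control pools 1, 2 and 3, and 55 and 0 without Mttp-IKO pools 1 and 2. Where so few genes passed, a count of 0 members says little.

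Nags encodes N-acetylglutamate synthase, which makes the activator without which carbamoyl phosphate synthetase does not work (ENSMUSG00000048217, GRCm38 chromosome 11, 102145513 to 102149477, plus strand). The 3 control pools held 34.1, 42.4 and 36.6 CPM, and the 3 Mttp-IKO pools 49.1, 56.8 and 52.0 CPM. The genotypes did not overlap, and relative to the mean its spread among Mttp-IKO pools was the smallest of the 10 genes. The means were 37.7 ± 4.26 and 52.6 ± 3.92 CPM (log2 fold change 0.48, standard error (SE) 0.149, edgeR adjusted p = 0.110). Nags shares 443 nt of exon with Gm11586 on the other strand, and whether the counting used strand is not given in the sources used here, so part of its reads could belong to that gene.

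Cps1 encodes carbamoyl phosphate synthetase, the mitochondrial enzyme by which ammonia enters the cycle (ENSMUSG00000025991, chromosome 1, 67123026 to 67231259, plus strand). Control pools held 2743, 3545 and 3641 CPM and Mttp-IKO pools 3693, 5747 and 6733 CPM. The lowest Mttp-IKO pool lay just above the highest control pool, which total-count scaling ended, and the other 2 lay far above it. The means were 3309.7 ± 493 and 5391 ± 1551 CPM (log2 fold change 0.70, SE 0.280, edgeR adjusted p = 0.186), so the Mttp-IKO pools differed among themselves more than the control pools did.

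Otc encodes ornithine transcarbamylase, which joins carbamoyl phosphate to ornithine to form citrulline in mitochondria (ENSMUSG00000031173, chromosome X, 10252305 to 10321024, plus strand). Controls were at 78.2, 116 and 101 CPM, Mttp-IKO pools at 52.1, 93.9 and 79.4 CPM. It was the one cycle gene whose mean was lower in Mttp-IKO pools, at 75.2 ± 21.2 against 98.5 ± 19.0 CPM, and the genotypes overlapped. The log2 fold change was -0.39 with a standard error of 0.248 (95% interval -0.96 to 0.18, adjusted p = 0.383, edgeR). It was -0.18 without Mttp-IKO pool 1 and -0.58 without Mttp-IKO pool 2. Scaled to total counts or to the hepatocyte markers it was -0.57 and -0.71 (edgeR adjusted p = 0.167 and 0.108), a move as large as that of the median gene under those scalings, which fell by 0.18 and by 0.32 on the log2 scale.

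Ass1 encodes argininosuccinate synthetase, which adds aspartate, the source of the other nitrogen of urea, to citrulline (ENSMUSG00000076441, chromosome 2, 31470207 to 31520672, plus strand). Its 3 control pools held 1622, 1957 and 2047 CPM and its Mttp-IKO pools 1909.8, 3536 and 3234 CPM. Mttp-IKO pool 1 lay within the control range and the other 2 above it. The means were 1875 ± 224 and 2893 ± 865 CPM (log2 fold change 0.63, SE 0.273, edgeR adjusted p = 0.219).

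Asl encodes argininosuccinate lyase, which splits the product of Ass1 into arginine and fumarate (ENSMUSG00000025533, chromosome 5, 130011258 to 130025132, minus strand). Counts per library size were 241, 353 and 381 CPM in controls and 487, 775 and 589 CPM in Mttp-IKO pools. As a fold change this was the widest difference among the 10 genes, and all Mttp-IKO pools lay above all control pools. The means were 325 ± 74.1 and 617 ± 146 CPM, and edgeR fitted a fold of 1.90 (95% interval 1.27 to 2.84; log2 fold change 0.93, standard error 0.253) with an adjusted p of 0.0827. Over 17 other settings the log2 value lay between 0.60 and 1.07, and DESeq2 alone among them called it.

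Arg1 encodes liver arginase, which releases urea from arginine and returns ornithine, and is also expressed by some macrophages (ENSMUSG00000019987, chromosome 10, 24915208 to 24927470, minus strand). Control pools held 683, 583 and 657 CPM and Mttp-IKO pools 953, 1225 and 738 CPM. The genotypes did not overlap, with Mttp-IKO pool 3 the nearest to the control range, and they overlapped when scaled to total counts. The means were 641 ± 52.2 and 972 ± 244 CPM (log2 fold change 0.60, SE 0.227, edgeR adjusted p = 0.168). Beside this, the summed level of 10 recruited macrophage genes was 569 to 1535 CPM in control and 257 to 316 CPM in Mttp-IKO pools, and 7 of the 10 fell in the edgeR test. By pool, this sum was 1426, 569 and 1535 CPM in control and 257, 316 and 269 CPM in Mttp-IKO. Control pool 2 was the lowest control pool and Mttp-IKO pool 2 the highest Mttp-IKO pool both for the sum and for Arg1. In both genotypes pools 1 and 3 stood in opposite order for the sum and for Arg1. The part of macrophages in Arg1 was not tested.

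Summed over the 6 cycle genes, the pools held 5402, 6596 and 6864 CPM in controls and 7144, 11434 and 11426 CPM in Mttp-IKO. The sum, 6287 ± 778 against 10001 ± 2475 CPM, did not overlap between genotypes under TMM, and the smallest two-sided p that an exact permutation test could give with 3 pools each is 0.1. With total counts the highest control pool, at 7255 CPM, lay above the lowest Mttp-IKO pool, at 6983 CPM, and with the hepatocyte markers set equal those pools were at 7840 (control) and 6331 CPM (Mttp-IKO), so the genotypes overlapped under both, settings tried after seeing the data. Cps1 and Ass1 supply most of the sum. The summed level of 15 hepatocyte markers, among them albumin and fibrinogen genes, was higher as well, at 85116 to 120984 CPM in control and 140092 to 196033 CPM in Mttp-IKO pools. Of these markers 9 of 15 had a higher mean and 2, Fga and Fgg, passed the edgeR test. In bulk RNA, a larger share of hepatocytes and more RNA of a gene per hepatocyte cannot be told apart. The part of the hepatocyte share in the cycle genes' values was not tested. With the hepatocyte markers set equal, Asl had a log2 fold change of 0.60 (adjusted p = 0.154, edgeR). That scaling lowered the median of all genes by 0.32 on the log2 scale and total-count scaling lowered it by 0.18. A scaling moves all genes by nearly the same amount. The members' distance from the median gene could therefore hardly change, and it says nothing about the hepatocyte share.

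**Figure D2:**
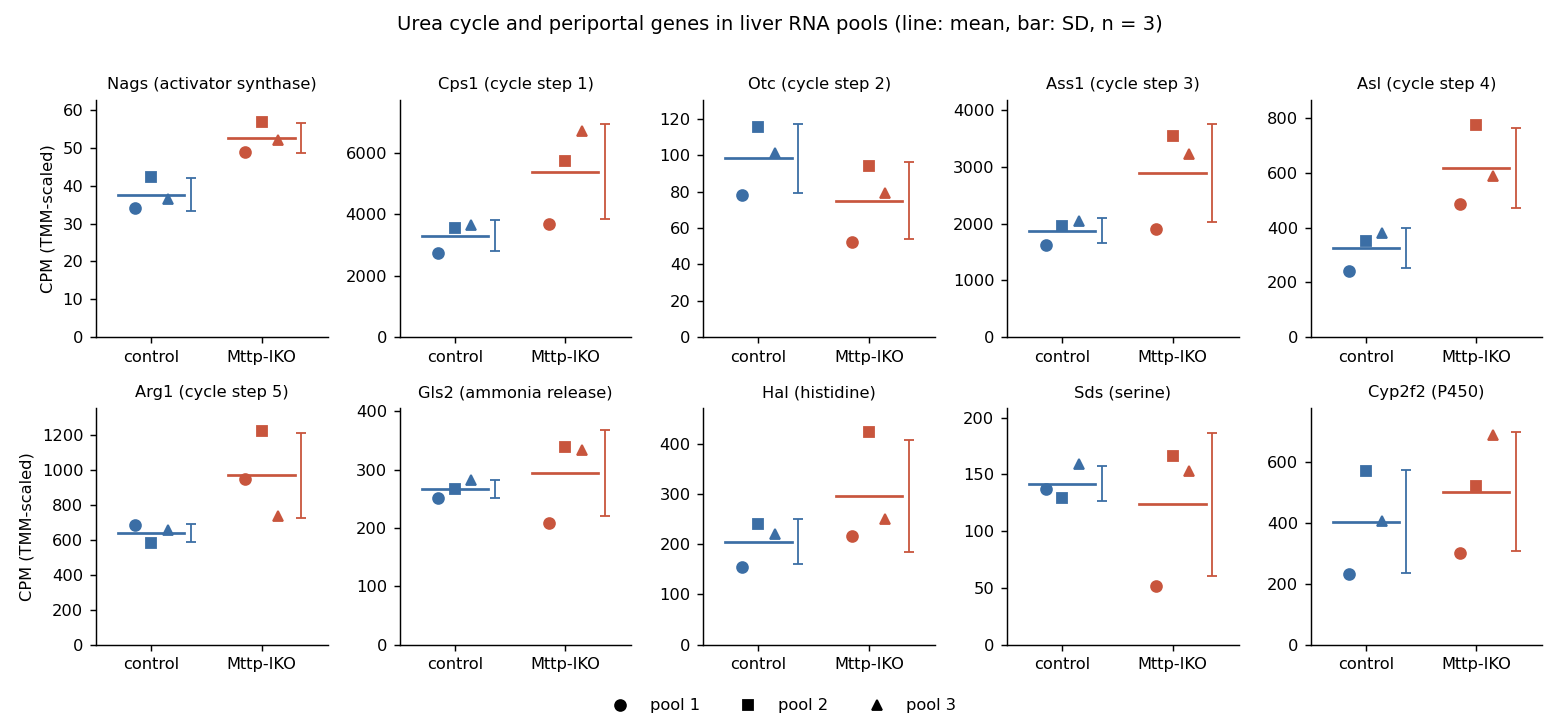
Level of each of the 10 genes in every pool (CPM scaled by TMM, linear axes from 0, 1 panel per gene), with control pools in blue and Mttp-IKO pools in orange. Horizontal lines are means, bars are SD (n = 3), and marker shapes give pool numbers, which the labels do not say pair the genotypes. Nags, Cps1, Asl and Arg1 have all Mttp-IKO marks above all control marks, and Sds has 1 Mttp-IKO mark, pool 1 at 51.3 CPM, far below the rest.

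**Figure D3:**
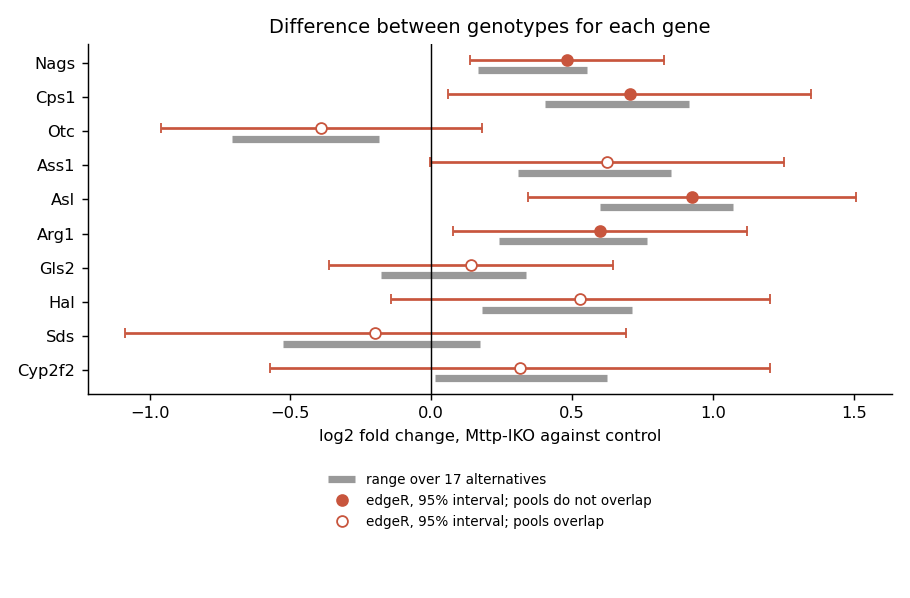
Log2 fold change of each gene, Mttp-IKO against control, with its 95% interval from the edgeR fit (orange) and the range over 17 alternative settings (grey bar below it); filled circles mark genes whose pools do not overlap. Asl lies farthest right at 0.93 with an interval of 0.34 to 1.51, Otc and Sds lie left of 0, and the intervals of Nags, Cps1, Asl and Arg1 leave out 0 before adjustment over all genes.

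A ratio of 2 genes within a pool needs no scaling. Most ratios of Otc, the member with the lowest log2 fold change, to the other members differed between genotypes. Reads of Otc per 100 reads of Asl were 32.5, 32.9 and 26.6 in control pools and 10.7, 12.1 and 13.5 in Mttp-IKO pools. The Mttp-IKO ratio was at 0.395 of the control ratio, and this width is not Otc's alone, since the ratios of Asl to 66.6% of all genes of average log2 CPM of at least 5 did not overlap between genotypes. Relative to Cps1, which supplies the carbamoyl phosphate that Otc uses, the pools held 2.97 ± 0.262 Otc reads per 100 in control and 1.41 ± 0.227 in Mttp-IKO (n = 3). Relative to Ass1, which uses the citrulline that Otc makes, the values were 5.23 ± 0.600 and 2.61 ± 0.141. So within each pool the gene of the citrulline-forming step was lower against its neighbours on both sides of the cycle in every Mttp-IKO pool than in any control pool.

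The ratios to the other members, Sds excepted, were lower as well. Per 100 reads of Arg1, Otc had 15.6 ± 4.22 reads in control and 7.97 ± 2.66 in Mttp-IKO pools, and per 100 reads of Nags 260.0 ± 26.3 and 141 ± 31.1. Against the periportal genes outside the cycle, it had 48.2 ± 2.26 and 26.0 ± 5.10 reads per 100 of Hal, 36.8 ± 6.17 and 25.5 ± 1.97 per 100 of Gls2, and 26.2 ± 6.74 and 15.6 ± 3.57 per 100 of Cyp2f2. Per 100 reads of Sds, Otc had 70.2 ± 17.1 and 70.0 ± 27.5 reads and the genotypes overlapped. In all, 8 of the 9 ratios of Otc did not overlap between genotypes, and all 8 were lower. These 8 share Otc's counts and are not separate observations. Otc was also the member with the lowest log2 fold change in these same pools, so the direction of its ratios follows from that. Beside them, 29.7% of the ratios of Otc to all other genes of that level did not overlap, as against 44.5% for Nags, 37.6% for Arg1, 37.1% for Cps1 and 22.9% for Ass1, and 31.5% of 10902115 ratios between any 2 such genes. Of the 45 ratios among the 10 members 16 did not overlap (35.6%), and of the 15 among the cycle genes 5 (33.3%), so members as a whole were near that background. Otc made up 1.06, 1.37 and 1.13% of the summed RPKM of the 6 cycle genes in control pools and 0.540, 0.614 and 0.571% in Mttp-IKO pools, while Asl made up 3.03, 3.86 and 3.96% and then 4.69, 4.71 and 3.93%.

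**Figure D4:**
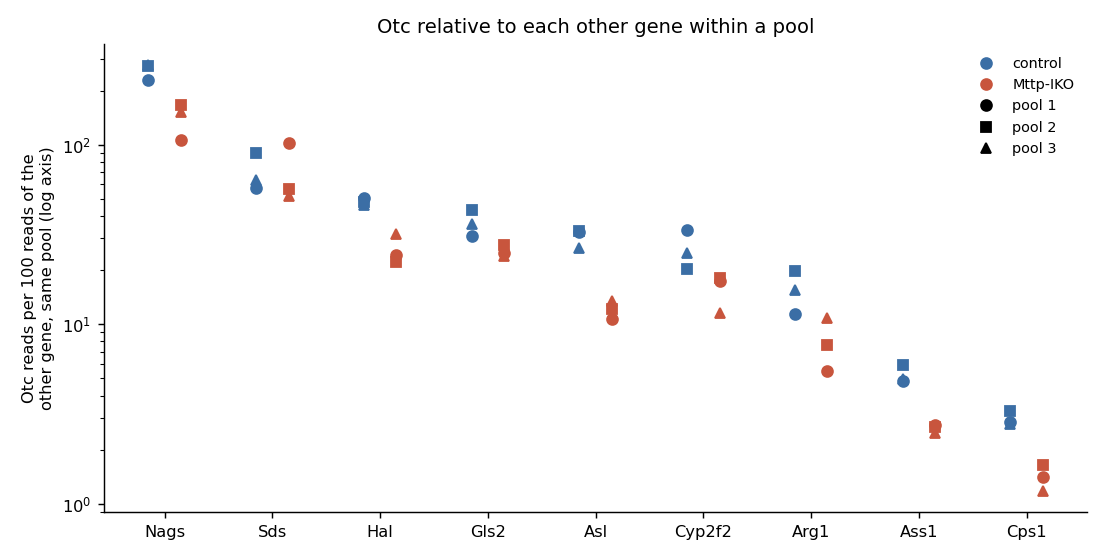
Reads of Otc per 100 reads of each other gene in the same pool (log axis), control in blue and Mttp-IKO in orange, marker shapes giving pool numbers. For every gene but Sds the 3 Mttp-IKO marks lie below the 3 control marks, most widely for Asl, at 10.7 to 13.5 against 26.6 to 32.9.

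For the 3 ammonia-releasing members the pools of both genotypes overlapped. Gls2 encodes the liver form of glutaminase, which frees ammonia from glutamine inside periportal mitochondria (ENSMUSG00000044005, chromosome 10, 128194457 to 128210004, plus strand). It was at 251, 267 and 282 CPM in control and at 209, 339.8 and 334 CPM in Mttp-IKO pools. The Mttp-IKO pools straddled the control pools, and the log2 fold change of 0.14 (SE 0.219, edgeR adjusted p = 0.740) lay between 0.02 and 0.34 when 1 pool was left out and became -0.047 when scaled to total counts and -0.18 when scaled to the hepatocyte markers.

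Hal encodes histidase, which turns histidine into urocanate and ammonia (ENSMUSG00000020017, chromosome 10, 93488768 to 93519304, plus strand). Control pools held 155, 241 and 221 CPM and Mttp-IKO pools 216, 424 and 249.8 CPM. A single pool, Mttp-IKO 2, lay well above the others, and the genotypes overlapped. The means were 206 ± 44.9 and 297 ± 112 CPM (log2 fold change 0.53, SE 0.292, edgeR adjusted p = 0.319), and without Mttp-IKO pool 2 the log2 fold change was 0.18.

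Sds encodes serine dehydratase, which makes pyruvate and ammonia from serine (ENSMUSG00000029597, chromosome 5, 120476531 to 120483932, plus strand). It stood at 137, 129 and 159 CPM in controls and at 51.3, 166 and 153 CPM in Mttp-IKO. Mttp-IKO pool 1 was far below the 5 others, which lay close together. The log2 fold change of -0.20 (SE 0.387, edgeR adjusted p = 0.796) turned to 0.17 without that pool, so its direction rests on 1 library. The same pool was the lowest of the 3 Mttp-IKO pools for 9 of the 10 members, Arg1 being the exception, and control pool 1 was the lowest control pool for 8.

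Cyp2f2 encodes a cytochrome P450 enzyme that acts on small aromatic compounds and is widely used to mark periportal hepatocytes (ENSMUSG00000052974, chromosome 7, 27119909 to 27133660, plus strand). It was at 233, 572 and 408 CPM in control and at 300.1, 521 and 688 CPM in Mttp-IKO pools. The pools of each genotype lay far apart, and the genotypes overlapped (log2 fold change 0.32, SE 0.386, edgeR adjusted p = 0.662). That value rested on single pools, at 0.012 without control pool 1, 0.63 without control pool 2 and 0.025 without Mttp-IKO pool 3. Gls2, Sds and Cyp2f2 share 97, 501 and 274 nt of exon with genes on the other strand, Spryd4, Plbd2 with Gm15690, and Gm15883, and the same limit on strand holds for them.

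The genes whose course over the 6 pools came nearest to the mean course of Cps1, Otc, Ass1, Asl and Arg1 were Elac1, Agtr1a, Acsm3, Mmachc and Ticam1. Their root mean square differences from it were 0.060, 0.063, 0.074, 0.075 and 0.078 on the log2 scale, among 9231 candidate genes with an average log2 CPM of at least 3. Among the members, Cps1 and Ass1 ran closest to each other, at 0.118, and Asl and Sds farthest apart, at 0.779. The mean course itself was lowest in control pool 1, at -0.45 from its own mean on the log2 scale, and highest in Mttp-IKO pool 2, at 0.55, with control pool 3 at -0.11 and Mttp-IKO pool 1 at -0.14.

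Beside the members, 6 lists of related genes were read, and 113 of their 116 genes could be tested (Oat and Glul stand in 2 lists). In these lists 4 genes (3.54%) passed the edgeR test, 2 higher and 2 lower, beside 4.01% of all genes. The median log2 fold change was 0.14. Of the listed genes 19.5% did not overlap between genotypes, fewer than the 31.0% of all genes. By list, in the order given below, this share was 5.26, 26.7, 13.8, 18.2, 11.8 and 37.5%. Without control pool 1, control pool 3 or Mttp-IKO pool 2, none of the listed genes passed, without Mttp-IKO pool 1 only 1 did, and without Mttp-IKO pool 3 there were 8. Of all genes 24, 21, 0, 55 and 864 passed in those settings, in that order.

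The genes that carry intermediates of the cycle across the mitochondrial membrane or supply its nitrogen held no gene that passed. Of 19 tested, 15 had a higher and 4 a lower mean, 0 passed the edgeR test, where 4.01% of all genes did, and the median log2 fold change was 0.20. Slc25a15, the carrier that brings ornithine to Otc and takes citrulline out, was at 297, 282 and 329 CPM in control and 232, 288 and 455 CPM in Mttp-IKO pools, which straddled the controls (log2 fold change 0.10, edgeR adjusted p = 0.844). Slc25a12, an aspartate and glutamate carrier, had 29.1 ± 3.28 and 39.4 ± 10.1 CPM without overlap (0.44, adjusted p = 0.246). Got1, the cytosolic transaminase that interconverts aspartate and glutamate, was at 223, 321 and 400.1 CPM in control and at 176, 809 and 1238 CPM in Mttp-IKO pools. Its Mttp-IKO pools were thus both the lowest and the highest of the 6 (log2 fold change 1.23, edgeR adjusted p = 0.259).

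Other routes of arginine, ornithine and glutamine were read alongside. Arg2, the mitochondrial arginase found mainly outside the liver, was scarce at 0.893 ± 0.342 and 1.27 ± 0.645 CPM. Oat, which breaks down ornithine, was at 339, 788 and 632 CPM in control and at 114, 269 and 348 CPM in Mttp-IKO pools. Glul, the glutamine synthetase of hepatocytes at the central vein, was at 685, 1642 and 1376 CPM in control and at 334, 611 and 824 CPM in Mttp-IKO pools. For both genes 2 control pools lay above all Mttp-IKO pools and control pool 1 did not, and neither passed the edgeR test (log2 fold changes -1.27 and -1.07, adjusted p = 0.143 and 0.172).

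Among genes that break down histidine, serine, threonine and glycine, 8 of 15 had a higher and 7 a lower mean, 0 passed the edgeR test and the median log2 fold change was 0.022. Amt and Gldc, which encode parts of one complex, the glycine cleavage system, had differences of opposite sign. Gldc was at 112, 111 and 95.1 CPM in control and at 205, 221 and 138 CPM in Mttp-IKO pools (edgeR log2 fold change 0.82, adjusted p = 0.0713). Amt was at 23.2, 34.2 and 30.6 CPM in control and at 17.6, 18.3 and 12.2 CPM in Mttp-IKO pools (edgeR log2 fold change -0.87, adjusted p = 0.0676). Neither gene overlapped between genotypes. Ftcd, a later step of histidine breakdown after Hal, had 204 ± 33.2 and 359 ± 105 CPM without overlap (0.81, adjusted p = 0.104), and Srr, a serine racemase, 29.0 ± 1.48 and 22.03 ± 1.86 CPM without overlap (-0.40, adjusted p = 0.150).

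Of 29 genes that break down other amino acids, 21 had a higher and 8 a lower mean, with 0 past the edgeR test and a median of 0.13 on the log2 scale. Acat1, a mitochondrial thiolase of isoleucine and ketone body metabolism, was at 285, 302 and 272 CPM in control and at 171, 217 and 149 CPM in Mttp-IKO pools, without overlap (log2 fold change -0.68, edgeR adjusted p = 0.0861). The branched-chain genes Dbt (0.49, adjusted p = 0.107) and Hibadh (-0.43, adjusted p = 0.216) did not overlap either and lay on opposite sides. Aass, the entry to lysine breakdown, was at 166, 369 and 659 CPM in Mttp-IKO pools beside 179.7 to 203 CPM in controls.

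Zonation was read from 11 other periportal genes and 17 pericentral ones. Of the periportal genes 7 had a higher and 4 a lower mean, the median log2 fold change was 0.047, and 1, Aldh1b1, a mitochondrial aldehyde dehydrogenase, fell. It was at 189, 138 and 189 CPM in control and at 56.2, 84.2 and 53.7 CPM in Mttp-IKO pools (edgeR log2 fold change -1.41, adjusted p = 0.0241). The gluconeogenic Fbp1 was at 595, 754 and 828 CPM in control and at 375, 507 and 424 CPM in Mttp-IKO pools, without overlap (-0.74, adjusted p = 0.0900), while Cdh1, E-cadherin, and Pigr, the polymeric immunoglobulin receptor, had log2 fold changes of 0.67 and 0.60 with overlapping pools.

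Of the pericentral genes 6 had a higher and 11 a lower mean, the median log2 fold change was -0.16, and 2 passed the edgeR test in opposite directions. Aldh1a1, which oxidises retinal, fell from 790.4, 982 and 914 CPM to 381, 370.0 and 362 CPM (log2 fold change -1.27, edgeR adjusted p = 0.0181). Cyp2c29, a cytochrome P450 gene, rose from 32.6, 107 and 50.9 CPM to 216, 295 and 338 CPM (log2 fold change 2.15, edgeR adjusted p = 0.0369). Both lists held values on both sides of 0, and the periportal genes outside the urea cycle had a median near that of all genes.

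Regulators known to act on urea cycle and amino acid genes had log2 fold changes with a median of 0.39, 19 of 24 being higher and 5 lower. Cebpd, a C/EBP transcription factor, rose from 30.9, 28.2 and 33.3 CPM to 50.1, 47.5 and 48.2 CPM (log2 fold change 0.66, edgeR adjusted p = 0.0425) and was the only one that passed. Hnf4a, a nuclear receptor that maintains hepatocyte genes, was at 563, 685 and 599.6 CPM in control and at 867, 1201 and 1317 CPM in Mttp-IKO pools (0.87, adjusted p = 0.0664). Ppargc1a, a coactivator of fasting genes, had 35.9 ± 6.09 and 79.8 ± 29.8 CPM (1.15, adjusted p = 0.0724), and Foxa2, a forkhead factor of the liver, 29.7 ± 6.43 and 45.1 ± 0.702 CPM (0.60, adjusted p = 0.0986). None of these 4 overlapped between genotypes, and in all 9 of the 24 had no overlap beside 31.0% of all genes.

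**Figure D5:**
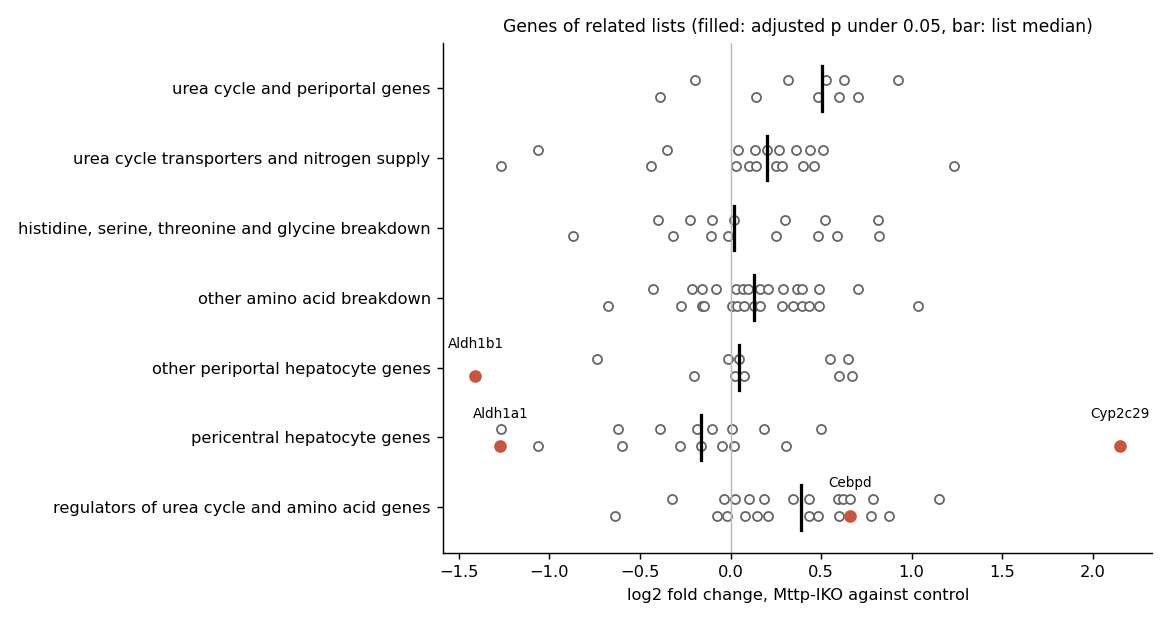
Log2 fold change, Mttp-IKO against control, of every tested gene in the 10-gene list and in 6 lists of related genes; filled circles passed the edgeR test at an adjusted p under 0.05 and are named, and vertical bars are list medians. The median of the urea cycle and periportal genes is 0.51, those of the other lists run from -0.16 to 0.39, and Aldh1b1, Aldh1a1, Cyp2c29 and Cebpd are the 4 filled circles.

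Markers of other cells moved with the genotype in the same pools. Beside the macrophage genes above, the summed level of 10 stellate cell and fibroblast genes was 705 to 1460 CPM in control and 281 to 335 CPM in Mttp-IKO pools, with 7 of 10 fallen. Kupffer cell genes summed to 701 to 1170 CPM and 480 to 988 CPM, with 1 of 10 called, higher, and endothelial genes to 425 to 463 CPM and 413 to 470 CPM with 0 of 8 called. Cholangiocyte, B cell, T cell, neutrophil, erythroid, enterocyte, kidney and striated muscle lists had 0 genes past the edgeR test. The part of these cells in the members' values was not tested. The gut and kidney genes at or near 0 were only part of their lists, as given above. Control pool 2 held the most muscle RNA, though control pool 1 held some too. Without control pool 2, 0 of 10 members and 892 of all genes passed the edgeR test. Asl had a log2 fold change of 0.97 in that fit (edgeR adjusted p = 0.139).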

How the data were processed

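The authors deposited, for each of 6 liver RNA pools (3 per genotype), raw read counts of 41388 genes. Per the labels and the study's methods, ribosomal RNA was depleted, reads were aligned to GRCm38 with STAR 2.5.1a, and featureCounts 1.4.6-p5 took uniquely aligned, unambiguous reads, so genes with near-identical copies are undercounted. The authors also deposited CPM and RPKM values, both of which follow from the counts, so the counts alone were tested. A deposited table of the series holds 40481 of these genes with symbols, and its 276 repeated lines were dropped.

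Genes were filtered with filterByExpr (minimum count 10, minimum total 15) and scaled by TMM, and genotypes were compared with edgeR 4.0.16 (glmQLFit, glmQLFTest, R 4.3.3), Benjamini-Hochberg adjusted over 17287 genes at a threshold of 0.05. The study's methods name no test for differential expression. DESeq2 1.42.0, limma 3.58.1 (voom), other scalings (among them one that sets 15 hepatocyte markers equal), filters, a gene length correction (loess span 0.3), a replicate block and leaving out each pool were alternatives. The tests were run on simulated counts in which every gene had the median dispersion of the real genes. There edgeR recovered 96 of 98 changes of 4-fold but only 36 of 96 changes of 2-fold.

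RPKM was computed as scaled CPM per kilobase of exon. Ratios within a pool added 0.5 reads to both genes for fold changes. Likeness is the root mean square difference of centred log2(CPM + 0.5) over 6 pools. The members and the gene lists were chosen with earlier results of these data known. Named genes are the members, up to 4 genes of each related list with the smallest p, Arg2 and Slc25a15 in any case (1 further gene of this kind is not reported here), and the 5 genes nearest in course, with others only where a value beside a member needed them. Gene coordinates are those in the deposited files, and promoter sequences are RefSeq's for GRCm38.p6. No 2 pools were alike to within sampling noise. Nothing states that pools hold separate cohorts, so p-values measure the spread between these pools. Figures were drawn with matplotlib 3.10.9.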

Additional observations from a re-analysis of the deposited data

How the results depend on the processing

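The number of genes past the edgeR threshold, 694, became 1603 with hepatocyte marker scaling, 1995 with DESeq2's Wald test and 428 with limma-voom, and leaving out 1 pool gave 0 to 892: 24 without control pool 1, 892 without control pool 2, 21 without control pool 3, 55 without Mttp-IKO pool 1, 0 (3221 at unadjusted p below 0.05) without Mttp-IKO pool 2 and 864 without Mttp-IKO pool 3. The cause was not tested, beyond the fewer samples of the last 6. The share of calls that were higher was 22.9%, and 11.1% with total counts, 5.36% with hepatocyte marker scaling and 32.9% with DESeq2. Members past the threshold were 0, 1 with DESeq2 (Asl) and 0 to 1 without 1 pool. Listed genes past it were 4, 14 with DESeq2 and 0 to 8 without 1 pool. Members without overlap were 4 (Nags, Cps1, Asl and Arg1 higher), 3 with total counts (Nags and Asl higher, Otc lower; 31.0% of all genes) and 2 with hepatocyte marker scaling (Nags higher, Otc lower; 34.7% of all genes), with Nags alone common to all. Of the 170 member fold changes under alternatives, 3 reversed: Gls2 to -0.047 with total counts and -0.18 with hepatocyte marker scaling, and Sds to 0.17 without Mttp-IKO pool 1 (-0.47 to 0.17 over the pools left out).

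The labels do not say whether pool numbers pair the genotypes, and the values do not settle it. Deviations of same-numbered pools correlated at 0.164, 0.143 and 0.0027, and those of other pairs at -0.166 to 0.0143. Control pool 3 correlated best with Mttp-IKO pool 2, at 0.0031. With the replicate number as a block, 595 genes, 0 members and 5 listed genes passed. With 3 pools a genotype, Otc's 95% interval of -0.96 to 0.18 holds a fall, no change and a rise.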
